A study of Arabidopsis thaliana with 12 samples.

Results

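The 6 Arabidopsis seedling libraries made without cycloheximide fell into 2 sets of 3 that none of their labels name. Mock 1, mock 3 and EPFL6 3 stood on one side, called the first set here, and mock 2, EPFL6 1 and EPFL6 2 on the other, called the second set. Genes were described along this division when their normalised read count was at least 10 in 3 or more of the 6 libraries, which kept 21746 of the 26702 genes listed. At the edge of that filter, the third-highest value was 10.2 for AT1G12130, just inside, and 9.54 for AT1G04237, just outside. The division was found in these same values, so the differences along it are a description and carry no test.

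All libraries came from clv3 epfl1 epfl2 epfl4 epfl6 plants of Arabidopsis thaliana, sampled at 3 days post germination and labelled as shoots of seedlings. Each replicate was a pool of 10 seedlings moved from plates with 1% sucrose, kept under 18 h of light and 6 h of darkness at 21 °C, into 1 ml of liquid medium. Mock replicates received 8.7 µl of treatment buffer, and EPFL6 replicates the same volume of a 10 µM solution of EPFL6, a secreted cysteine-rich peptide that signals through ERECTA-family receptor kinases. Another 3 replicates with buffer and 3 with EPFL6 were first given cycloheximide (CHX), a blocker of translation, at 10 µM for 10 min. These 6 libraries belong to neither set and are described as a further readout, though not one independent of the division. The labels give neither the time from EPFL6 to collection nor the time of day, and no batch. Seedlings of a pool shared a vessel, and every group carries the same mutations, so no wild-type reference stands beside them.

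Depth, in units of 1000000 recovered reads, was 47.9 to 49.97 in the first set and 40.2 to 59.4 in the second, so the ranges overlap. The 100 most abundant genes took 12.9 to 13.9% of the reads in the first set and 14.0 to 15.7% in the second. All 26 root markers passed the filter, against the shoot label, and their summed level was 22377 to 24635 in the first set and 19858 to 25391 in the second. PRP3 was between 1637 and 3112 in the 6 libraries, and CASP1, which forms the Casparian strip of the root endodermis, between 1047 and 1546. Mutated genes were read at low levels in part. CHAL, the EPFL6 gene, was at 7.41 to 15.5 and CLL2, the EPFL4 gene, at 0 to 5.15, below the filter. In a principal component analysis of these 6 libraries, the first component held 47.7% of the variance and gave mock 1, mock 3 and EPFL6 3 scores of 8.35, 31.6 and 32.6, against -37.1, -18.7 and -16.7 for mock 2, EPFL6 1 and EPFL6 2. Mock 1 was therefore the member of the first set nearest to the second. With all 12 libraries, 91.2% of the variance lay on the component that separates CHX from no CHX. The second component, with 2.99%, separated the sets and also CHX from CHX plus EPFL6. The division was found on a second component. Among the 6 libraries alone the second component did not separate the sets, with mock 2 at 11.7 and EPFL6 3 at -15.9. The libraries with CHX may therefore have had a part in finding the division.

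Jasmonates are lipid-derived hormones made in the plastid and the peroxisome from linolenic acid, and in seedlings they rise after wounding, touch or attack. The active conjugate binds the receptor COI1, which marks JAZ proteins for breakdown and so frees MYC-type factors that switch on defence and wound genes, JAZ genes among them. Jasmonate-treated and wounded leaves are known to lower transcripts of photosynthesis, which are otherwise raised by light and timed by the circadian clock, whose morning genes include CCA1 and LHY.

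Of the 21746 genes, 4877 (22.4%) did not overlap between the sets. In 2775 of them (12.8%) every library of the first set lay above every library of the second, and in 2102 (9.67%) the order was the other way. The differences were of unequal size in the 2 directions. At 2-fold or more between the set medians, 262 genes (1.2%) were higher in the first set and 40 (0.184%) in the second, and at 4-fold or more the counts were 63 and 1. At 8-fold or more there were 16 genes, each higher in the first set. Over all genes described, the median log2 difference between the sets was 0.03. Across 21278 genes it had a Spearman rho of 0.004 with exon length and -0.004 with GC content, given as a description because genes share the libraries.

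Several of the genes with the widest gaps are known from earlier work as jasmonate-inducible genes of defence or amine metabolism. NATA1 (AT2G39030), an acetyltransferase that makes N-acetylornithine, was at 944, 1639 and 5245 in mock 1, mock 3 and EPFL6 3. It was at 7.42, 3.81 and 25.2 in mock 2, EPFL6 1 and EPFL6 2. The lowest library of the first set was thus far above the highest of the second, and the difference of the set medians was 7.61 on the log2 scale. JAL23 (AT2G39330), a jacalin-related lectin, was at 1049, 519 and 1070 in the first set and at 14.8, 11.4 and 17.35 in the second. MBP1 (AT1G52040), a myrosinase-binding protein, was at 927, 341 and 3438 against 33.4, 19.1 and 24.3. Its neighbour MBP2 is similar in sequence, so reads of the pair could be shared in part. TAT3 (AT2G24850), a tyrosine aminotransferase that is a standard jasmonate marker, was at 1076, 1342 and 8055 against 61.2, 76.3 and 148. In TAT3, MBP1 and NATA1, EPFL6 3 was the highest library, while mock 1 and EPFL6 3 were nearly level in JAL23.

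Other genes with wide gaps had the same order of sets. They were DXPS1, CYP82G1, which makes the volatile TMTT in leaves, the sugar metabolism gene PGL5, MBP2, NAC019, a NAC factor gene that jasmonate induces, CYP71A13 of camalexin synthesis, FAMT, which methylates farnesoic acid, and the receptor-like protein gene RLP53. Their log2 differences ran from 2.53 in RLP53 to 4.95 in CYP71A13. CYP71A13 is a close copy of CYP71A12, and reads of that pair may also be shared.

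**Figure D1:**
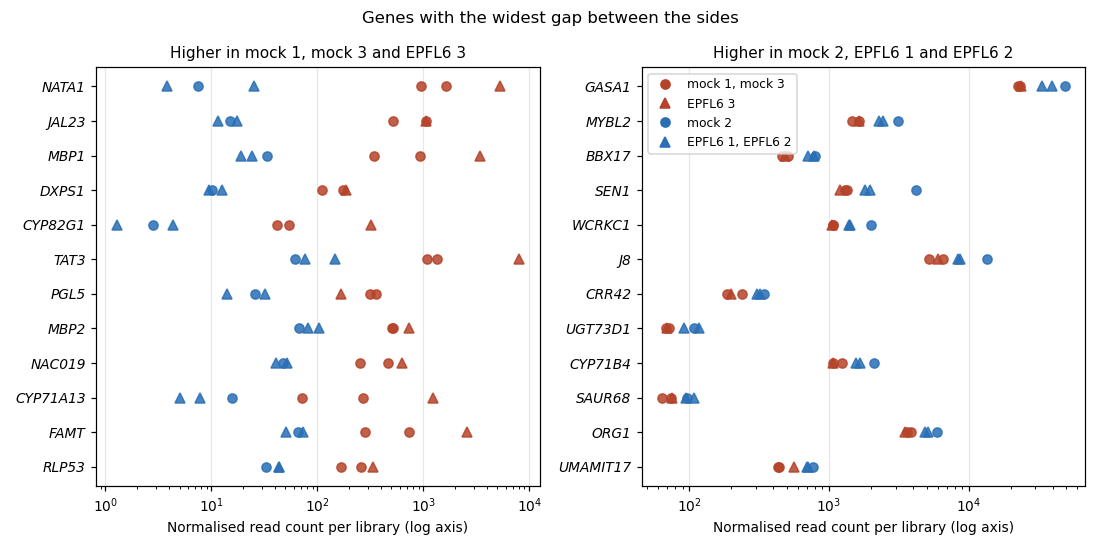
Normalised read count (log axis) of the 12 named genes with the widest gap in each direction, 1 point per library; circles are mock, triangles EPFL6, red the first set and blue the second. In NATA1 the first set lies between 944 and 5245 and the second between 3.81 and 25.2, while in GASA1, the widest gap in the other direction, the sets lie between 22458 and 23676 and between 33630 and 48848.

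The stretch before the annotated start of some of these genes is printed to show motifs that were counted over all genes. These 6 genes were chosen after the search, each because it holds a motif, and do not stand for the rest. MYC factors bind the G-box, CACGTG, and its variant AACGTG, here called the T/G-box. Each line gives the 250 bases before the gene start in the RefSeq TAIR10.1 annotation, on the strand of the gene, with the motif in capitals as it reads on that strand. The first 4 are marked for a T/G-box, MBP1 for a G-box, and PSAF, a photosystem I subunit gene from the opposite end of the division, for an I-box, GATAAG, known from light-regulated promoters. The JAZ5 stretch also holds a GATAAG, which is left in lower case.
NATA1, chr2:16297860-16298109, plus strand: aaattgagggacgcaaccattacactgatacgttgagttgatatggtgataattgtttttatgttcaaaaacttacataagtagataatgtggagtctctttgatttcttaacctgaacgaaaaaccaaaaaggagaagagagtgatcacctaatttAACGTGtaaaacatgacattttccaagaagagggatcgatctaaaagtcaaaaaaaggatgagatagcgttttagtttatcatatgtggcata
FAMT, chr3:16379321-16379570, plus strand: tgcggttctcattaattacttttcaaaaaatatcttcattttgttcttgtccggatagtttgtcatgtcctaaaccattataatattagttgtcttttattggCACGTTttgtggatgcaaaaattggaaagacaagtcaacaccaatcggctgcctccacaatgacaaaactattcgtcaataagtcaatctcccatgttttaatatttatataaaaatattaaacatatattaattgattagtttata
VSP1, chr5:8509202-8509451, minus strand: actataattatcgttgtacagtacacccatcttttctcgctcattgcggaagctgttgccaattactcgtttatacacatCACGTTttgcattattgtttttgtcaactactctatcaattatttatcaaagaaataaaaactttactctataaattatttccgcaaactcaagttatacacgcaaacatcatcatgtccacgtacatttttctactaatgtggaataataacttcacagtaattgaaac
JAZ5, chr1:5957512-5957761, minus strand: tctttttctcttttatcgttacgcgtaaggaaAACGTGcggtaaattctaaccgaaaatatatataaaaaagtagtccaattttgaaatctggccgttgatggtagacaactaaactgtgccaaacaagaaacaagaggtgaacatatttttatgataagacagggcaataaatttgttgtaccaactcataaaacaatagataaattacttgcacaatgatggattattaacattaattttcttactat
MBP1, chr1:19352792-19353041, minus strand: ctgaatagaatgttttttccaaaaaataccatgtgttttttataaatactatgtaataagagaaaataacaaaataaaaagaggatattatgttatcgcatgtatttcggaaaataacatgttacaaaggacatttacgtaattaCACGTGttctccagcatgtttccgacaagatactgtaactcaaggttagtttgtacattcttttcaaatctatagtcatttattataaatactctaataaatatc
PSAF, chr1:11216142-11216391, minus strand: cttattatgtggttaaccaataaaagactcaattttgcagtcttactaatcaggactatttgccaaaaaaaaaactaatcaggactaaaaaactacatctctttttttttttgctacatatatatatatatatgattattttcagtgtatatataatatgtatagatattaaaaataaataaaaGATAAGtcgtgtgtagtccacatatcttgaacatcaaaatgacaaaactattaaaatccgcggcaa

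Both strands were searched in the 250 bases before each gene, and no G-box can overlap a T/G-box. Of the 262 genes at least 2-fold higher in the first set, 258 had such a stretch, and 58 of these (22.5%) held a T/G-box, against 1618 of 21277 (7.60%) over all genes described. The share with a G-box was 12.8% against 7.16% over all. Among the 63 genes at least 4-fold higher in the first set, 28.6% held a T/G-box and 22.2% a G-box. In the jasmonate list the T/G-box stood in 11 of 43 stretches. Both motifs also stood before genes from the other end of the division. The T/G-box was in 7 of 38 stretches (18.4%) of genes at least 2-fold higher in the second set. Among genes at least 1.5-fold higher there, it was in 23 of 252 (9.13%) and the G-box in 9.52%. In photosynthesis genes the T/G-box was in 1 of 33 (3.03%) and the G-box in 15.2%. Of the 16 morning clock genes, 43.8% held a G-box. The W-box in the form TTGACT, which WRKY factors bind, was in 27.9% of the 258 against 19.0% over all. Of the 33 photosynthesis genes, 11 held an I-box (33.3%, against 12.3% over all genes), as did 9 of the 43 jasmonate genes (20.9%) and 15.9% of the 63. A match describes these letters only and shows no binding.

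Jasmonate genes were higher in the first set along most of the pathway. Of 43 genes in a list put together after their values had been seen, 34 did not overlap and were higher in the first set, and 1 was higher in the second, against 12.8% and 9.67% of all genes. The median log2 difference of the list was 1.09. Of these genes, 21 were among the 262 genes at least 2-fold higher, which is 48.8% of the list and 8.02% of the 262. No p-value is given, because the list was chosen with the result known.

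In synthesis, 10 of 12 genes did not overlap, all higher in the first set, with a median log2 difference of 0.85. LOX3, a lipoxygenase of the first step, was at 1012, 1395 and 1212 in mock 1, mock 3 and EPFL6 3 and at 206, 181 and 347 in mock 2, EPFL6 1 and EPFL6 2. AOS, which acts on the lipoxygenase product, was at 3902, 6098 and 9425 against 1927, 2129 and 2861. The cyclase genes AOC1, AOC2, AOC3 and AOC4 differed by 0.90, 0.81, 1.34 and 0.45 on the log2 scale, and OPR3, the reductase of the peroxisome, by 0.72. JAR1, which makes the active isoleucine conjugate, overlapped between the sets, with a log2 difference of -0.04. LOX2, the abundant leaf lipoxygenase, also overlapped, at 14063, 16714 and 41158 against 8452, 10076 and 15585.

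The receptor and the factors in the list differed little. COI1 was at 1868, 1874 and 1933 in the first set and 1998, 2086 and 1992 in the second, so it did not overlap but differed by only -0.09 on the log2 scale. MYC3 and MYC4, with log2 differences of 0.07 and -0.03, overlapped. AT1G01260, the bHLH factor JAM2, was higher in the first set without overlap, at 834, 895 and 896 against 684, 768 and 752. A further gene of this role, AFPH2, was not analysed here. MYC2, another MYC factor gene, was not in the list, so the factors as a whole are not described.

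Of the 10 JAZ repressor genes, 9 were higher in the first set without overlap, and the median log2 difference was 0.91. JAZ8 was at 28.6, 98.9 and 160 in the first set and 12.1, 14.0 and 22.6 in the second. JAZ10, which dampens the response through a splice form the receptor binds weakly, was at 463, 1242 and 795 against 137, 116 and 147. In JAZ8 and JAZ10 mock 1 was the lowest library of the first set. JAZ5 and JAZ1 differed by 2.25 and 1.59 on the log2 scale, and JAZ12 by 0.12. JAZ6 overlapped, at 0.47.

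Of 7 genes that break down or modify the hormone, 6 did not overlap, with a list median of 0.99. JMT, which methylates jasmonate, was at 28.6, 47.9 and 50.5 against 7.42, 12.7 and 13.9. CYP94C1, which oxidises the active conjugate, was at 171, 338 and 618 against 120, 116 and 163, and CYP94B3, a hydroxylase of the same conjugate, overlapped with 163, 589 and 99.9 against 85.4, 57.2 and 115. The amidohydrolase gene IAR3 differed by 1.12 on the log2 scale.

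Of 10 output genes 8 did not overlap, all higher in the first set, and the median log2 difference was 2.51. These outputs were picked with their values known and include NATA1, so no rank is given to them among the roles. VSP2, a vegetative storage protein with acid phosphatase activity, was at 251, 254 and 734 in the first set and 32.5, 36.9 and 81.6 in the second. VSP1, its neighbour and close copy, was at 415, 183 and 1226 against 71.4, 85.2 and 123. THI2.1, a thionin, was at 24.4, 10.2 and 20.6 against 1.86, 2.54 and 0. THI2.1 reached 10 in the first set alone, so it passed the filter only by being high there, and its count among the 8 says little. In the second set, NATA1 reached 10 only in EPFL6 2. PDF1.2, a defensin that needs ethylene as well as jasmonate, overlapped, with 149, 90.7 and 1066 against 147, 19.1 and 57.3. NAC055 (AT3G15500), a relative of NAC019, overlapped too, with a log2 difference of -0.10.

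**Figure D2:**
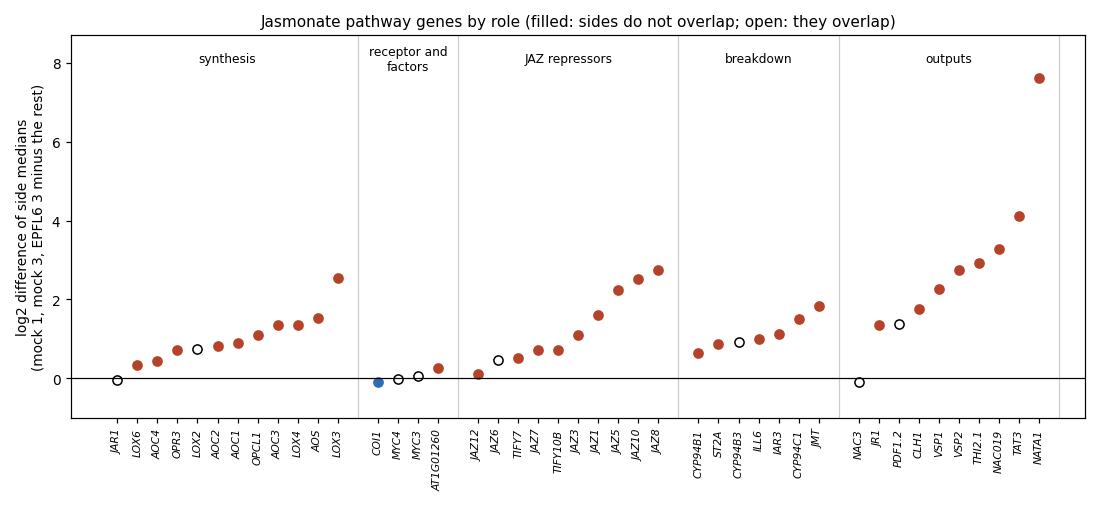
Log2 difference of the set medians (first set minus second set) for the 43 jasmonate pathway genes, grouped by role; filled points are genes whose sets do not overlap, open points genes whose sets do. The receptor and the listed factors, which do not include MYC2, lie near 0, with COI1 at -0.09, and the outputs reach 7.61 in NATA1.

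Specialised defence metabolism differed in the same direction for tryptophan-derived compounds. Of 14 genes of indole glucosinolate and camalexin synthesis, 11 (78.6%) did not overlap, all higher in the first set, against 12.8% of all genes. Their median log2 difference was 0.61. PAD3, the last enzyme of camalexin synthesis, was at 829, 1010 and 3157 against 246, 505 and 371. CYP71A12 was at 323, 472 and 410 against 91.8, 73.7 and 96.3. The regulators MYB51 and MYB34 differed by 0.64 and 0.09 on the log2 scale without overlap, and IGMT5, an indole glucosinolate methyltransferase, by 1.30. Of 8 genes of methionine-derived aliphatic glucosinolates, 0 were apart, and their median was 0.36. Both lists were put together with the values known.

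Anthocyanin enzymes were higher in the first set where they differed. DFR, which commits flavonoids to anthocyanin, was at 102, 72.4 and 152 against 18.6, 8.90 and 19.1, and LDOX at 60.4, 48.9 and 125 against 13.0, 15.3 and 21.7. Together with UF3GT these were the 3 of 7 enzyme genes (42.9%) that did not overlap, against 12.8% of all genes. TT4 and TT5, the early enzymes of the flavonoid pathway, had log2 differences of 0.02 and 0.03. MYBL2, a repressor of the pathway, was higher in the second set at 3106, 2423 and 2272 against 1646, 1460 and 1645.

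Early wound, touch and elicitor genes were higher in the first set in 17 of 36 cases (47.2%) and in the second in 0. Over all genes the shares were 12.8% and 9.67%, and the list had a median log2 difference of 0.68. The list shares several jasmonate genes, such as LOX3 and JAZ10. AT1G76640, the largest difference in the list, was at 51.9, 77.5 and 85.5 against 9.28, 7.63 and 18.22. WRKY33, a factor that drives camalexin genes, was at 3216, 4643 and 4404 against 2142, 2742 and 1984. WRKY40 and MYB15 overlapped, at 1.37 and 1.71, since EPFL6 1 in WRKY40 and EPFL6 2 in MYB15 lay above mock 1.

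Salicylate and defence genes did not overlap in 9 of 18 cases, all higher in the first set, against 12.8% of all genes. Their median log2 difference was 0.78. BGL2, the pathogenesis-related glucanase also known as PR2, was at 122, 145 and 470 against 22.3, 31.8 and 29.5, and PBS3, which makes a salicylate precursor, at 101, 99.9 and 124 against 29.7, 10.2 and 36.4. The signalling genes EDS1, PAD4 and NPR1 overlapped, with log2 differences of -0.04, 0.04 and -0.04. EPFL6 3 stood apart from the other libraries in this list, with a median deviation of 1.39 on the log2 scale against 0.15 and 0.20 in mock 1 and mock 3.

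Other stress lists differed less. Over all genes, 12.8% were higher in the first set without overlap and 9.67% in the second. Oxidative stress and detoxification genes were higher in the first set in 8 of 20 cases, with a median of 0.39. UGT74E2, a glucosyltransferase of indole-butyric acid, was at 8652, 6247 and 6263 against 2428, 5817 and 2174. Of 17 heat shock genes 1 did not overlap (5.88%), with a median of 0.35. HSP90.1 was at 8616, 8910 and 9732 against 3879, 8879 and 3039, where EPFL6 1 sat among the first set. Unfolded protein response genes were apart in 4 of 15 cases (26.7%), and low oxygen genes in 4 of 19 (21.1%) with 1 the other way. Abscisic acid and drought genes were apart in 4 of 27 (14.8%) with 1 the other way, near the share of all genes. Cold-responsive genes were apart in 1 of 15 (6.67%) against 2 the other way (13.3%). Phosphate starvation genes were apart in 3 of 17 cases, and sulfur starvation genes in 4 of 16.

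Some of the 262 genes lie side by side in the genome. Among them 35 genes formed 15 runs of neighbours. The longest run, chr5:19428888-19461706 in TAIR10.1, is the gene cluster for thalianol, a root triterpene. THAS1, the synthase that makes thalianol, was at 2748, 4148 and 885 in mock 1, mock 3 and EPFL6 3 and at 304, 345 and 601 in the second set. CYP708A2, which hydroxylates it, was at 1609, 2387 and 951 against 461, 517 and 813. In THAS1 and CYP708A2, EPFL6 3 was the lowest of its set, unlike in NATA1 or TAT3. The methionine sulfoxide reductase genes MSRB7, MSRB8 and MSRB9, similar copies, formed a run of 3 on chromosome 4. MSRB9 was at 5352, 6921 and 6705 against 1922, 2924 and 3864. BGLU18, a beta-glucosidase of ER bodies in another run, was at 8684, 4891 and 43979 against 738, 1286 and 1545.

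Photosynthesis genes lay at the opposite end. Of 33 nuclear photosynthesis genes, 19 (57.6%) did not overlap, all higher in the second set, against 9.67% of all genes. Their median log2 difference was -0.90. The median of every gene in the list was lower in the first set, from -0.64 in LHCB4.1 to -1.98 in LHB1B1. LHB1B1, a chlorophyll-binding protein of the photosystem II antenna, was at 14406, 5095 and 7434 in mock 1, mock 3 and EPFL6 3 and at 44619, 15548 and 29285 in mock 2, EPFL6 1 and EPFL6 2. LHCB2.2, another antenna gene, was at 17347, 5092 and 8150 against 27613, 17731 and 22166. Mock 1 nearly reached EPFL6 1 in both genes.

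PSAF was at 41930, 30574 and 33801 in the first set and 70331, 43239 and 62266 in the second, and LHCA1, of the photosystem I antenna, at 51830, 30498 and 32557 against 88761, 52719 and 64040. RBCS1A, a small subunit of Rubisco, overlapped, at 407682, 326108 and 326177 against 554641, 399117 and 567892. CAB1, CAB2 and CAB3 are near-identical copies, so their separate values are uncertain. The 5 leaf mesophyll markers are photosynthesis genes too. Their summed level was 470575 to 724955 in the first set and 713273 to 991078 in the second, and none was near 0. In these bulk samples, fewer mesophyll cells and less of these RNAs per cell cannot be told apart.

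Chlorophyll synthesis genes were higher in the second set in 7 of 15 cases (46.7%) and in the first in 1 (6.67%). Over all genes the shares were 9.67% and 12.8%, and the list had a median of -0.53. CAO, which makes chlorophyll b, was at 9648, 7343 and 7450 against 12719, 10123 and 11486. GUN5, a subunit of magnesium chelatase, was at 27542, 14334 and 17267 against 39003, 25504 and 37934, where mock 1 overlapped EPFL6 1. GS2, the plastid glutamine synthetase in the nitrate list, was at 76619, 55711 and 55154 against 97706, 80325 and 88157.

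The widest gaps in favour of the second set were narrow beside those of NATA1 or TAT3. GASA1, a gibberellin-regulated peptide gene, was at 22458, 23284 and 23676 in the first set and 48848, 33630 and 39621 in the second. SEN1, a gene of darkness and senescence, was at 1338, 1301 and 1211 against 4206, 1826 and 1958, with mock 2 far above the others. The remaining named genes of this kind were MYBL2, BBX17, WCRKC1, J8, CRR42, UGT73D1, CYP71B4, SAUR68, ORG1 and UMAMIT17, with log2 differences from -0.38 in SAUR68 to -0.69 in BBX17 and UMAMIT17. The largest median difference, chosen after its value was seen, was that of FBA5, an aldolase gene, at 190, 64.2 and 50.5 against 467, 202 and 488. Mock 1 was just below EPFL6 1 in FBA5.

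Clock genes of the morning tended to be lower in mock 3 and EPFL6 3, while clock genes of the evening were level. Of 16 morning genes, 6 (37.5%) did not overlap, all higher in the second set, against 9.67% of all genes. Their median log2 difference was -0.47. CCA1 was at 2244, 1023 and 973 in mock 1, mock 3 and EPFL6 3 and at 1676, 1623 and 1939 in the second set. LHY was at 2534, 998 and 1060 against 1322, 1701 and 2010. In CCA1 and LHY, mock 1 was the highest of the 6 libraries, so these genes set mock 3 and EPFL6 3 apart and not the first set as a whole. PRR7, which represses CCA1 and LHY later in the morning, was at 4948, 4656 and 4169 against 8237, 5517 and 6165. CDF1, a repressor of flowering genes, was at 515, 368 and 301 against 685, 525 and 533. Of 16 evening genes, 0 were apart and the median was -0.05. TOC1 was at 3888, 3990 and 4571 against 4831, 4026 and 4165, and GI at 3737, 4036 and 3865 against 4647, 3937 and 3860.

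Light receptors and signalling genes were higher in the second set in 8 of 37 cases and in the first in 1. Over all genes the shares were 9.67% and 12.8%, and the list had a median of -0.10. PIF4, a growth-promoting factor that phytochrome holds back, was at 1624, 1417 and 1342 against 2953, 1854 and 1891. HY5, a main factor of light responses, overlapped at 1270 to 1418 against 1219 to 1317, and PHYB, the main red-light receptor, differed by 0.04. Light-induced genes outside photosynthesis were apart in 1 of 14 (7.14%) in each direction, with a median of -0.24. Shade and dark growth genes were apart in 3 of 18 (16.7%) in each direction. Among them SAUR19, SAUR20 and AT5G18030 were higher in the second set, with log2 differences from -0.75 to -0.93. These neighbouring SAUR genes are near-identical, so their reads may be shared.

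Sugar lists gave a mixed picture. Sugar starvation and dark-induced genes were higher in the second set in 5 of 21 cases (23.8%) and in the first in 2 (9.52%). Over all genes the shares were 9.67% and 12.8%, and the list had a median of -0.17. GDH2, a glutamate dehydrogenase, was higher in the first set, by 0.46 on the log2 scale, while SEN1 and BZO2H3 were higher in the second. Of 13 sugar-induced genes, 3 (23.1%) were higher in the first set. BAM5, a beta-amylase, was at 436, 364 and 1362 against 23.2, 19.1 and 203, and the other 2 were DFR and LDOX.

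**Figure D3:**
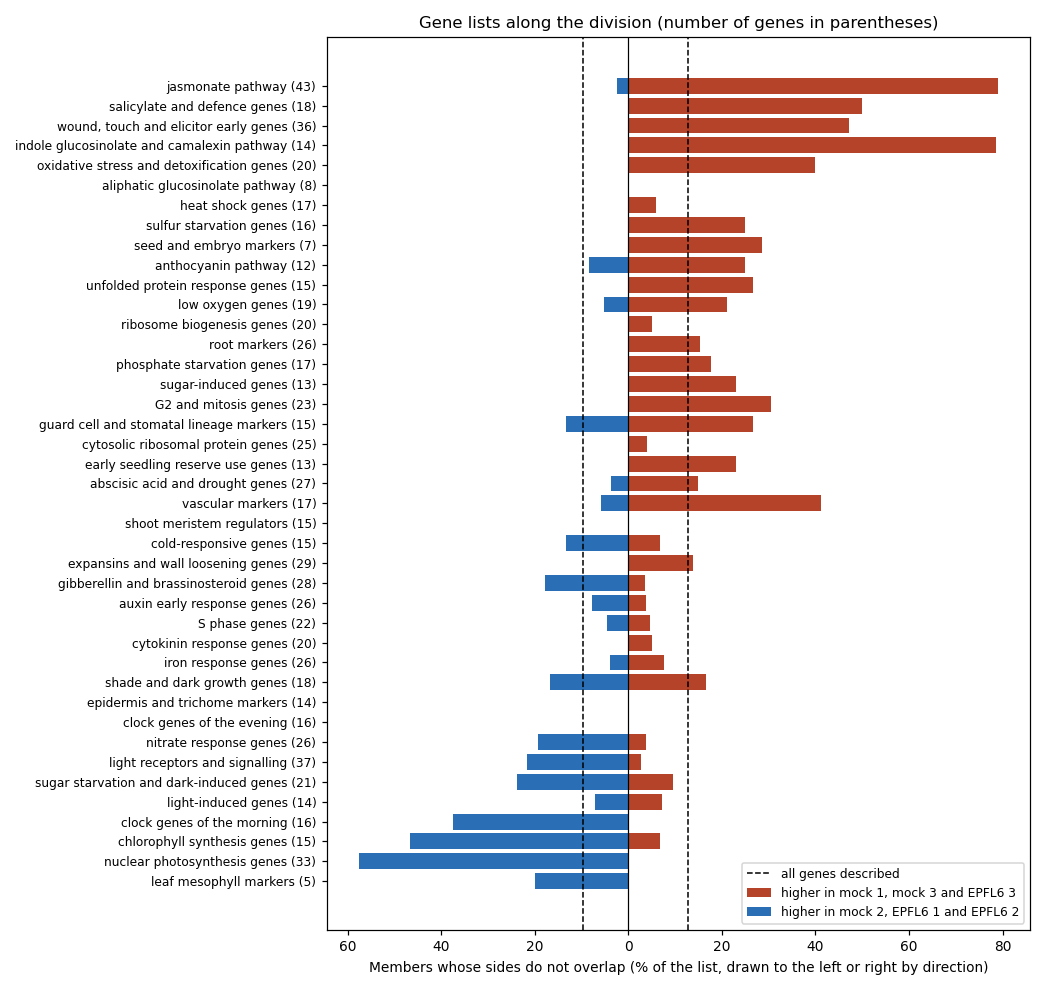
Share of each list's genes whose sets do not overlap, to the right when higher in the first set and to the left when higher in the second; dashed lines mark the shares over all 21746 genes, 12.8% and 9.67%. The jasmonate pathway reaches 79.1% to the right and nuclear photosynthesis genes 57.6% to the left, and shoot meristem regulators and evening clock genes have no bar.

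Growth lists had small median differences, with unequal counts of genes apart, beside the 12.8% and 9.67% of all genes. S phase genes were apart in 1 of 22 in each direction, with a median of 0.02. Of 23 genes of G2 and mitosis, 7 (30.4%) were higher in the first set and 0 in the second, with a list median of 0.12. CYCB2;1, a mitotic cyclin, was at 127, 157 and 134 against 101, 104 and 94.6. Cytosolic ribosomal protein genes were apart in 1 of 25 cases (4.0%), with a median of 0.10, and ribosome biogenesis genes in 1 of 20, with 0.16.

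Expansins and wall-loosening genes were apart in 4 of 29 cases (13.8%), near the 12.8% of all genes, with a median of 0.06. EXPA10 was at 4609, 7737 and 5410 against 2986, 4222 and 3080. Auxin early genes were apart in 1 of 26 (3.85%) against 2 the other way (7.69%), and cytokinin genes in 1 of 20 (5.0%). Gibberellin and brassinosteroid genes were apart in 1 of 28 (3.57%) against 5 the other way (17.9%), beside 9.67% of all genes. GA20OX2, a gibberellin synthesis gene, was at 90.03, 85.6 and 101 against 109, 153 and 129. Of 17 vascular markers, 7 (41.2%) were higher in the first set and 1 (5.88%) in the second, with a list median of only 0.08. Root markers were apart in 4 of 26 (15.4%), with a median of 0.14. Of 14 epidermis and trichome markers 0 were apart.

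Of 15 shoot meristem regulators, 0 were apart between the sets, and some were apart between mock and EPFL6. WUS, which keeps the stem cell centre, was at 310, 400 and 426 in the mock replicates and 122, 121 and 126 in the EPFL6 replicates. CLV3, the stem cell peptide gene that is mutated here but still transcribed, was at 618, 791 and 640 in mock and 290, 279 and 365 in EPFL6. The 3 mock libraries were above the 3 EPFL6 libraries in WUS and CLV3, on both sides of the division. Other regulators had the opposite order. DRNL, an AP2-type factor of organ founder cells, was at 13.8, 6.49 and 4.08 in mock and 44.5, 42.5 and 46.4 in EPFL6, and its relative ESR1 at 59.3, 64.0 and 63.2 against 159, 142 and 181. Over the list, 9 regulators had a negative and 6 a positive log2 change with EPFL6, with a median of -0.07. In limma 0 of the 15 passed the Benjamini-Hochberg threshold. An unadjusted p under 0.05 was found in 8 of them, against 660 of all 23225 genes tested. On the log2 scale, EPFL6 minus mock was -1.53 in WUS within the first set and -1.71 within the second, and in CLV3 -0.78 and -1.47. Their set medians differed by 1.34 and 1.09, because the first set holds 2 mock libraries and the second 1.

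The libraries did not keep one order across the lists. The median deviation of the jasmonate genes from the mean of the 6 libraries was 0.22, 0.59 and 0.90 on the log2 scale in mock 1, mock 3 and EPFL6 3, and -0.65, -0.66 and -0.36 in mock 2, EPFL6 1 and EPFL6 2. For photosynthesis genes, mock 1 was at 0.04, near EPFL6 1 at 0.08, while mock 3 and EPFL6 3 were at -0.62 and -0.52, mock 2 at 0.62 and EPFL6 2 at 0.39. For wound, touch and elicitor genes mock 1 was at -0.09, next to EPFL6 1 at -0.14, and far from mock 3 at 0.56. For morning clock genes mock 1, at 0.15, lay between EPFL6 1 at 0.11 and EPFL6 2 at 0.18. Mock 1 was thus with the first set in jasmonate, indole glucosinolate and defence genes, and near the second in photosynthesis, morning clock and wound genes. Root markers were at -0.41 in mock 2 and between -0.02 and 0.15 in the other libraries. The part of root tissue, depth or the share of the most abundant genes in the division was not tested.

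**Figure D4:**
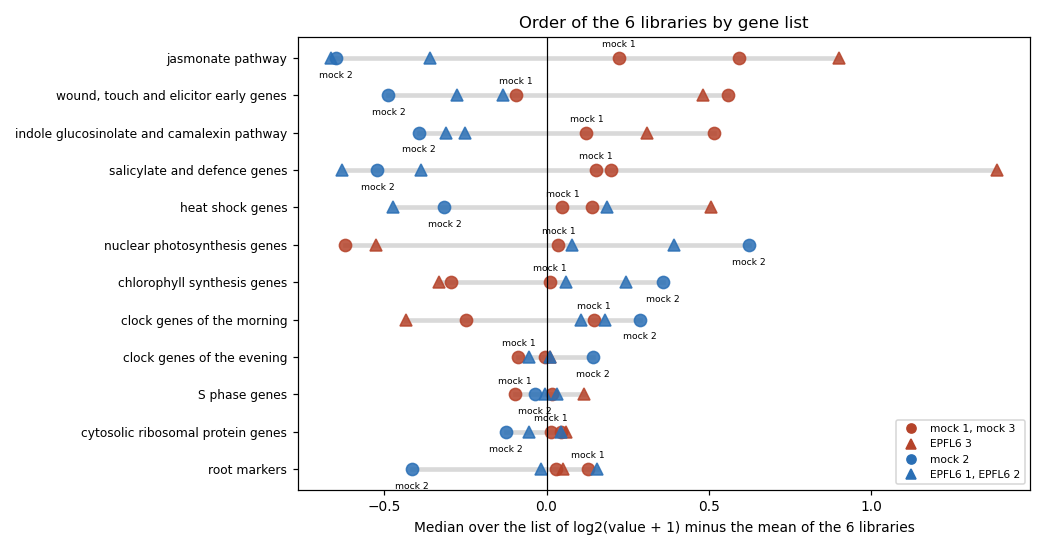
Median over each list of log2(value + 1) minus the mean of the 6 libraries, 1 point per library; circles are mock, triangles EPFL6, red the first set, blue the second. In jasmonate genes red lies from 0.22 to 0.90 and blue from -0.66 to -0.36, whereas in morning clock genes mock 1 at 0.15 lies among the blue points.

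The labelled comparison without CHX crosses the division. With limma on log2(value + 1) and Benjamini-Hochberg adjustment, 0 of 23225 genes (0%) differed between EPFL6 and mock at an adjusted p under 0.05, while 660 had an unadjusted p under 0.05. The quasi-likelihood test of edgeR also gave 0 genes, and DESeq2 gave 38, of which 13 were higher and 25 lower with EPFL6. Adding the set as a term gave 0 as well, with 2059 genes at an unadjusted p under 0.05, but that term was found in the same values, so these p-values are too small. WUS had a log2 change of -1.60 and an adjusted p of 0.279 in the limma fit of 6 libraries. NATA1 had a change of -1.43 with an adjusted p of 1.0.

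Libraries with CHX belong to neither set, but the division may have been found with their help, so they are no independent readout. The 262 genes higher in the first set were spread among them as well. Their median deviation from the group mean was -0.06, -0.36 and 0.47 on the log2 scale in CHX 1, CHX 2 and CHX 3, and 0.36, -0.07 and -0.24 in the 3 libraries with CHX plus EPFL6. NATA1 was at 2281, 64.1 and 2861 with CHX, and at 171, 9.61 and 20.8 with CHX plus EPFL6. TAT3 was at 55938, 23765 and 111991 with CHX, and at 53069, 4483 and 2860 with CHX plus EPFL6. CHX 2 was the lowest CHX library in NATA1, TAT3, VSP2 and JAZ10, and CHX plus EPFL6 1 the highest of its group in NATA1, TAT3 and JAZ10. Photosynthesis genes deviated the other way in CHX 2, at 0.20, and in CHX plus EPFL6 1, at -0.19. Across 21172 genes, the difference along the division had a Pearson r of -0.01, -0.31 and 0.31 with the deviations of CHX 1, CHX 2 and CHX 3. With those of CHX plus EPFL6 1, 2 and 3 it was 0.34, -0.11 and -0.28. These values are described without a p because deviations within a group share its mean.

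In the test of EPFL6 with CHX, 1505 of 23225 genes (6.48%) passed, 521 higher (2.24%) and 984 lower (4.24%) once EPFL6 was added to CHX, by limma with Benjamini-Hochberg adjustment. Of the 262 genes higher in the first set, 26 fell (9.92%) and 10 rose (3.82%), with a median log2 change of -0.93, against 0.004 over all genes tested. The second component of all 12 libraries separates the sets and also CHX from CHX plus EPFL6, so these counts are not independent of the division. Among the jasmonate genes 9 of 43 fell (20.9%) and 0 rose, with a median of -1.22. Genes also fell in lists with few or no members apart along the division. Aliphatic glucosinolate genes fell in 3 of 8 cases (37.5%), expansins and wall-loosening genes in 8 of 29 (27.6%), cytokinin genes in 4 of 20 and shoot meristem regulators in 11 of 15 (73.3%). Anthocyanin genes fell in 6 of 12 cases. In the indole glucosinolate and camalexin list, higher in the first set, 3 of 14 rose and 1 fell. VSP2 was at 1054, 538 and 1134 with CHX and 150, 60.3 and 193 with CHX plus EPFL6, a log2 change of -2.83 ± 0.475 (SE) with an adjusted p of 0.0294. LOX3 was at 28745, 38464 and 80756 against 14851, 8174 and 11249, a change of -2.01 ± 0.396 with an adjusted p of 0.0385. In VSP2 and LOX3 the 2 groups did not overlap. The other 7 jasmonate genes that fell were VSP1, AOC3, AOC4, OPCL1, LOX4, JAZ1 and JAZ3.

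NATA1, TAT3 and JAZ10 did not pass, with log2 changes of -4.46, -2.59 and -2.20 and adjusted p-values of 0.13, 0.18 and 0.098 in limma, since CHX 2 or CHX plus EPFL6 1 came near or inside the other group. JAL23 did not pass either, at -3.79 with an adjusted p of 0.0617. The 10 of the 262 genes that rose included PAD3, from 8174, 4990 and 7847 to 12793, 17485 and 16659, a change of 1.18 ± 0.212 with an adjusted p of 0.0315, and NIT4, a nitrilase of cyanide detoxification, at 1.41. At the opposite end, 4 of 33 photosynthesis genes rose (12.1%) and 0 fell, with a median of 0.41. The genes at least 1.5-fold higher in the second set also numbered 262. Of these, 9 rose (3.44%) and 3 fell (1.15%), with a median of 0.19. Over all genes tested, 2.24% rose and 4.24% fell. PSAF rose by 0.66 ± 0.143 on the log2 scale, with an adjusted p of 0.0448. In morning and evening clock genes 0 of 32 passed in limma.

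These counts depended on which single library was left out. Without CHX 1, 2123 genes passed in all, and 26 of the 262 and 6 jasmonate genes fell. Without CHX plus EPFL6 3, 119 genes passed in all, 1 of the 262 fell and 0 jasmonate genes did. Without CHX plus EPFL6 1, 55 of the 262 and 22 jasmonate genes fell. Without CHX 3 the numbers were 6 and 0, without CHX 2 they were 12 and 1, and without CHX plus EPFL6 2 they were 5 and 0. WUS and CLV3, by contrast, fell with CHX plus EPFL6 under every one of 15 alternatives, with log2 changes of -3.45 and -2.46 over all 6 libraries (limma adjusted p of 0.0021 and 2.5e-05). Replicate spread in the jasmonate genes and the change with EPFL6 lie on the same genes, and the part of that spread in the change was not tested.

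**Figure D5:**
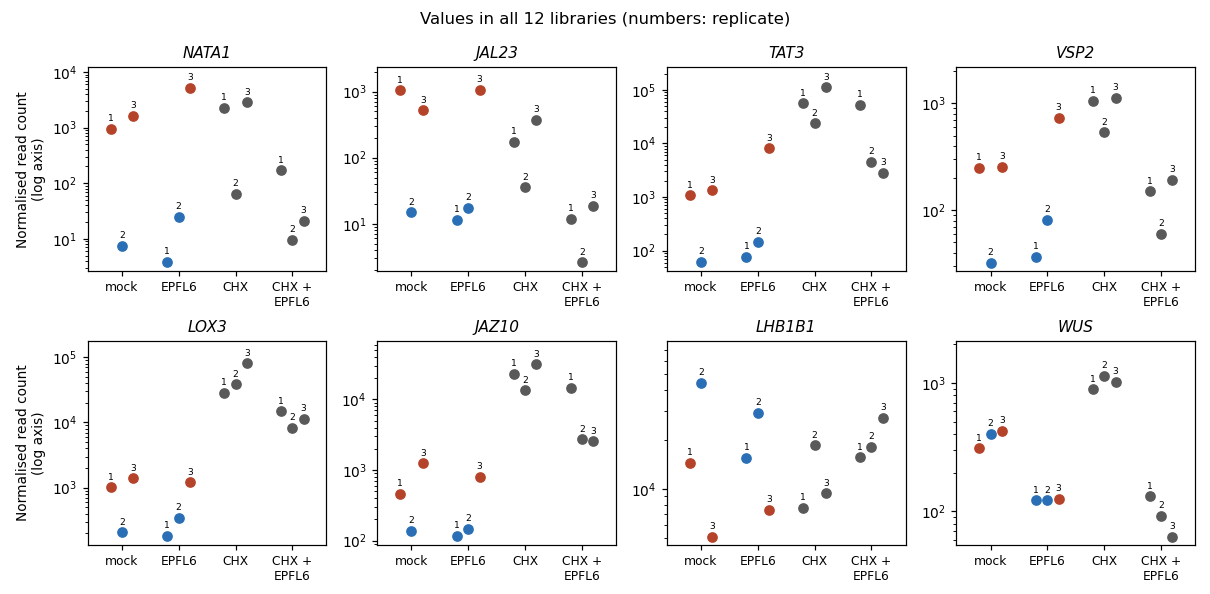
Normalised read count (log axis) of 8 genes in all 12 libraries, numbered by replicate; red is the first set, blue the second and grey the libraries with CHX. NATA1 ranges from 64.1 to 2861 among the CHX libraries alone, whereas WUS is between 310 and 426 in mock and 121 and 126 in EPFL6 whatever the set.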

How the data were processed

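RNA-seq libraries of 4 groups, 3 replicates each, were analysed. The deposited values are a signal, read counts per gene divided by a size factor per library; the submitters' processing notes name DESeq2 1.26.0, the aligner STAR 2.7.6a, the build TAIR10 and the counter featureCounts 2.0.0. Strand setting and treatment of shared reads are not given in the sources used here. Whole reads were recovered from the deposited signal for 100% of values, within 1e-06 of a whole number. The division came from these values, so along it only set medians, log2(value + 1) differences and overlap are given. EPFL6 with CHX and EPFL6 against mock were each tested on log2(value + 1) with limma 3.58.1 (trend, robust, Benjamini-Hochberg) in R 4.3.3 over 23225 genes. Alternatives were edgeR 4.0.16 and DESeq2 1.42.0 on the recovered reads, other pseudocounts, filters and scalings, a replicate block, and libraries left out. The tests were tested on simulated data. Genes named were the 12 with a symbol and the widest gap between the sets in each direction, members of the lists, and some chosen after their values were seen. Members and lists were chosen with earlier results of these data known. Labels call the replicates biological.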

Additional observations from a re-analysis of the deposited data

How the results depend on the processing

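Of the values computed under alternatives for the main results, 134 stayed close and 34 moved. Those that stayed close include all 41 list medians under library size alone and TMM scaling, which describe the division and test nothing. For counts the band was wide, since 2123 genes for EPFL6 with CHX without CHX 1, against 1505, was taken as close. The counts for EPFL6 with CHX moved under many settings, as given below. Of 41 list medians, 2 near 0 changed sign: shade and dark growth genes from -0.01 to 0.02 with library size alone and 0.002 with TMM scaling, and iron response genes from -0.0007 to 0.03 and 0.003. The number of genes not overlapping between the sets, 4877, ran from 6011 to 9282 when 1 library was left out, the construction itself giving more genes with fewer libraries. Without mock 1 it was 9282, without EPFL6 1 8578 and without EPFL6 2 7859. These leave-one-out values, the jasmonate count and the counts within the 262 genes were added after seeing the data. Of 129 named genes that did not overlap, 0 of 1161 values under alternatives reversed and 53 moved by over 1 SD.

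For EPFL6 with CHX, DESeq2 called 3744 genes and a fit of all 4 groups 3140, against 1505, and leaving out 1 library gave 119 to 2123. Of the 262 genes, those lower numbered 26, with 87 in DESeq2, 9 with all 4 groups and 1 to 55 with 1 library left out. Those higher numbered 10, with 18, 1 and 0 to 10. Jasmonate genes lower numbered 9, with 25 in DESeq2 and 0 to 22 with 1 library left out. For EPFL6 against mock, DESeq2 called 38 genes and all 4 groups 4, against 0. The cause was not tested.

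Replicate numbers did not pair the samples throughout. Deviations of same-numbered libraries correlated at -0.17, 0.36 and 0.53 for mock and EPFL6. For CHX and CHX plus EPFL6 the values were 0.18, 0.07 and -0.17. For mock and CHX they were -0.10, 0.26 and 0.23, and for EPFL6 and CHX plus EPFL6 -0.12, 0.11 and -0.13. Mock 3 correlated most with EPFL6 3, and mock 2 equally with EPFL6 1 and EPFL6 2, at 0.36. With a replicate block, 245 genes passed for EPFL6 with CHX and 0 for EPFL6 against mock. With the replicate block 14 of the 262 genes were lower and 4 higher, and 2 jasmonate genes were lower.

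With 3 libraries a set, and the sets found in the values, no error can be given for the division.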
